A study of Homo sapiens with 24 samples.

Results

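The proteasome genes of human THP-1 macrophages were followed across 6 groups of a knockdown and polarisation experiment. The members are the protein-coding genes of the gene expression table whose symbol starts with PSMA, PSMB, PSMC, PSMD, PSME, PSMF or PSMG and a digit, which gives 49 of 58735 genes. Among them, 5 are interferon-inducible (PSMB8, PSMB9, PSMB10, PSME1 and PSME2) and 44 are not. PSMC3IP matches the pattern by name but encodes a recombination factor and no proteasome subunit. A level of at least 1 FPKM (fragments over gene length and library size) in at least 4 of 24 libraries was asked for before testing, and 44 members passed, all 5 inducible ones among them. The 5 members that did not pass were PSMA2, PSMA8, PSMB11, PSMD9 and PSMG4.

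THP-1 is a human monocytic leukaemia line that phorbol ester turns into macrophage-like cells; here 20 nM phorbol 12-myristate 13-acetate was given for 72 hours to every group. In CES1KD cells the gene of carboxylesterase 1, an enzyme that cleaves cholesteryl esters and xenobiotics, was stably knocked down with an shRNA delivered by lentivirus, and WT cells are the control. The 6 groups, with 4 libraries each, were CES1KD M1 and WT M1 (1 µg/ml LPS with 100 ng/ml interferon gamma), CES1KD M2 and WT M2 (100 ng/ml IL4), and CES1KD M0 and WT M0 (resting). The sources used here do not say whether the CES1KD line is a pool or 1 clone, nor whether WT cells carry a control vector, so the knockdown and any other difference between the lines cannot be told apart. They also do not say whether the 4 libraries of a group are separate cultures, and p-values then measure only the spread between these libraries.

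The proteasome degrades ubiquitin-tagged proteins. Its 20S core is a barrel of alpha and beta rings in which PSMB6, PSMB7 and PSMB5 carry the caspase-like, trypsin-like and chymotrypsin-like sites, and the 19S cap of PSMC ATPases and PSMD subunits recognises, unfolds and feeds in substrates. Under interferon gamma, newly built cores take up PSMB9, PSMB10 and PSMB8 in place of PSMB6, PSMB7 and PSMB5. The resulting immunoproteasome, often capped by the PA28 activator of PSME1 and PSME2, makes peptides that fit MHC class I molecules well, and macrophages are known to carry it in part already at rest.

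The promoters of the 5 inducible members are shown because their response to LPS with interferon gamma is what the results turn on. The windows are RefSeq's on GRCh38.p14, 250 bases before to 50 after a gene start, and 43 of the 49 members had one. TAP1, a peptide transporter gene, is added because it lies head to head with PSMB9. Capitals mark GAAANNGAAA, read on either strand, the letters of the core of the interferon-stimulated response element that interferon regulatory factors are known to bind. For PSMB8 the window of the second start is shown, since that of the first holds no match.
PSMB8 (chr6:32843998-32844297, minus strand): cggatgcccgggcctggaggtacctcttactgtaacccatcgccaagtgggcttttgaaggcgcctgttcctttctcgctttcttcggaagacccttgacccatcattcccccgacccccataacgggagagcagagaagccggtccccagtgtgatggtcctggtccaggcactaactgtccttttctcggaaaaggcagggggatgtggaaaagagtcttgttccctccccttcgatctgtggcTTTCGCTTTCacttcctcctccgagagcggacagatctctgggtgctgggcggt
PSMB9 (chr6:32853942-32854241, plus strand): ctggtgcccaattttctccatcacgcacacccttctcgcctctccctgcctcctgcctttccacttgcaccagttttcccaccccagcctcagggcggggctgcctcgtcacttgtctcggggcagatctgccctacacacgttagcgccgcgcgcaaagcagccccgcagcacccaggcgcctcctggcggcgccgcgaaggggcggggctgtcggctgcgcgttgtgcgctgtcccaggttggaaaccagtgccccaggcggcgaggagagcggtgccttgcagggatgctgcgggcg
TAP1 (chr6:32853655-32853954, minus strand): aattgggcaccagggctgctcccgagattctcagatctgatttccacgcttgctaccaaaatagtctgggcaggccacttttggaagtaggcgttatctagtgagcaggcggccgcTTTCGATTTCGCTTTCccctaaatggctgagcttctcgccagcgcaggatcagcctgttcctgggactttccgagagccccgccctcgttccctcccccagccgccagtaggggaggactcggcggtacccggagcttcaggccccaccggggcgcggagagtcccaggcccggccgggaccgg
PSMB10 (chr16:67936801-67937100, minus strand): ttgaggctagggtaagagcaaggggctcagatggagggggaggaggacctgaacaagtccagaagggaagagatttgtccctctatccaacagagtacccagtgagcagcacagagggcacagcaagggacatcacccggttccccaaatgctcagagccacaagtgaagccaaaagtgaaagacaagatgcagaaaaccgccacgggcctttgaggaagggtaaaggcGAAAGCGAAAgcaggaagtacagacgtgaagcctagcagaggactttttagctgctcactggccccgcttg
PSME1 (chr14:24135944-24136243, plus strand): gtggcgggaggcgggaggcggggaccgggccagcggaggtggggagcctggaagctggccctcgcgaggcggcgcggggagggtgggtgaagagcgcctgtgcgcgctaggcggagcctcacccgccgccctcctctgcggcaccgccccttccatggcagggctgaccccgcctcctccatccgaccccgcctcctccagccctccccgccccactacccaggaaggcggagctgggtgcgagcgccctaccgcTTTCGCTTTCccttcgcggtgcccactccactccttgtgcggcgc
PSME2 (chr14:24146561-24146860, minus strand): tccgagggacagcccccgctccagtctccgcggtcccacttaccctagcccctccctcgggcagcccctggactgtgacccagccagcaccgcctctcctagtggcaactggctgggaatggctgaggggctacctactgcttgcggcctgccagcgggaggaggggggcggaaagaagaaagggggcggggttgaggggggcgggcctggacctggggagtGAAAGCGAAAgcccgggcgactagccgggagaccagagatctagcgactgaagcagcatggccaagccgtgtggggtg

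These letters stood in the windows of 4 of the 5 inducible members, of TAP1, and of 3 of the 38 other members with a window (PSMA4, PSMB4 and PSMG4). Over all 27305 genes with RefSeq windows of this length, 4.38% held them in at least 1 window. PSMB9's own window did not. Of TAP1's windows, the one shown held 2 overlapping matches and the other none. PSMB8's match began 4 bases before the gene start, PSMB10's 21 before and PSME2's 28 before. The letters TTCNNNGAA, the core of the gamma-activated site, stood in PSMB8 among the inducible members and in 7 of the 38 others, against 9.38% of all genes. GGGANNTTCC, the outline of an NF-kappa B site, stood in no member and in 1.97% of all genes. TGACNNNGC, part of the antioxidant response element that NFE2L1 and NFE2L2 bind, stood in 3 of the 5 inducible and 12 of the 38 other members, against 16.1% of all genes. All were searched on both strands, and a match is a description of the letters, not a bound site.

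The libraries held 14881563 to 26671681 fragments on genes, recovered from FPKM and gene length. CES1 was at 0 to 0.125 FPKM in the 12 CES1KD libraries, against 4.04 to 7.78 FPKM in the 12 WT libraries, without overlap. Of 8 macrophage markers 7 passed the filter, with a summed level of 939.8 to 2240.1 FPKM over the list. The macrophage marker that did not pass was CD68, with group means of 0.0065 to 0.0558 FPKM. The 12 lymphocyte, epithelial and erythroid markers reached at most 0.873 FPKM per list. CD3E, EPCAM, KRT5 and HBB were at 0 in every library. One fibroblast marker of 4, PDGFRA, passed the filter, and the fibroblast list summed to 1.21 to 6.0 FPKM. The deposited FPKM do not divide by the plain total: the library size behind them was 0.870 to 0.946 of the fragments on genes in M1 libraries, 1.01 to 1.07 in M2 and 1.04 to 1.14 in M0. Dividing by the total in its place shifts the median of all genes in the M1 response from 0.01 to -0.18 in CES1KD cells and from 0.00 to -0.20 in WT cells on the log2 scale, which decides the sign of small differences below. Library CES1KD M2 replicate 2 stood farthest from its group over the 44 tested members, with a median absolute log2 deviation of 0.161, against 0.0412 to 0.157 in the other 23 libraries.

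The inducible members were highest in M1 cells of both lines. PSMB8, the chymotrypsin-like subunit of the immunoproteasome, was at 102, 101, 85.8 and 111 FPKM in the CES1KD M1 libraries and at 123, 125, 115 and 148 FPKM in the WT M1 libraries. It was at 62.3, 36.8, 58.1 and 62.2 FPKM in CES1KD M2 and at 54.8, 47.5, 51.4 and 57.1 FPKM in WT M2. At rest it was at 60.6, 61.4, 59.5 and 64.8 FPKM in CES1KD M0 and at 49, 48.9, 47.7 and 52.5 FPKM in WT M0. Every M1 library thus stood above every M2 and M0 library, the CES1KD M1 libraries lay below all WT M1 ones, and the CES1KD M0 libraries lay above all WT M0 ones. PSMB8 rose in M1 by 0.69 ± 0.12 in CES1KD cells and by 1.34 ± 0.12 in WT cells (log2 difference ± SE on log2(FPKM + 1), limma, adjusted p = 7.07e-05 and 4.08e-09). In the annotation 20.6% of its exonic bases are shared with the opposite-strand genes PSMB8-AS1 and PSMB9, and no label states a stranded count, so reads of these genes cannot be told apart.

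PSMB9, the immunoproteasome's counterpart of PSMB6, changed most. It was at 79.4, 76.2, 81.3 and 88.9 FPKM in CES1KD M1 and at 94.3, 92.3, 99 and 117 FPKM in WT M1. It was at 23.8, 16.8, 21 and 25.4 FPKM in CES1KD M2 and at 16.5, 17.8, 15.4 and 16.3 FPKM in WT M2. It was at 24, 22.6, 24.1 and 28.7 FPKM in CES1KD M0 and at 17.1, 17.6, 17 and 19.3 FPKM in WT M0. The lines did not overlap at rest or in M1, with CES1KD the higher at rest and the lower in M1, and in M2 1 CES1KD library lay inside the WT range. The M1 response was 1.68 ± 0.10 in CES1KD cells and 2.43 ± 0.10 in WT cells (limma adjusted p = 5.46e-12 and 3.83e-15).

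PSMB10, the trypsin-like subunit, varied most among replicates. It was at 22.7, 19.8, 15.8 and 36 FPKM in CES1KD M1 and at 34.1, 29.3, 22 and 54.2 FPKM in WT M1. It was at 14.1, 2.20, 9.46 and 13.2 FPKM in CES1KD M2 and at 15, 8.09, 11.5 and 14.5 FPKM in WT M2. It was at 12, 11.1, 13.2 and 12.8 FPKM in CES1KD M0 and at 19.1, 17, 17.2 and 17.4 FPKM in WT M0. The resting groups were tight and apart, with CES1KD the lower, whereas the treated libraries spread widely and the lines overlapped there. Replicates 4, 1, 2 and 3 came in that order from high to low in both M1 groups, and 1, 4, 3 and 2 in both M2 groups. PSMB9 (4, 3, 1 and 2) and PSME2 (4, 1, 3 and 2) also kept their order in both M1 groups, though not in M2. The M1 response of PSMB10 was 0.83 ± 0.36 in CES1KD cells, which did not pass (limma adjusted p = 0.0633). In WT cells it was 0.87 ± 0.36, which passed narrowly (limma adjusted p = 0.0489). The WT call was lost without each of the 4 WT M0 libraries and without WT M1 replicates 1, 2 or 4, at log2 differences of 0.64 to 1.06, and also with 0.1 added before the logarithm, without the filter, with all 3 other scalings and with limma voom, at 0.62 to 0.90. The CES1KD response passed without CES1KD M1 replicate 3, at 0.99, and at an unmoved value in the fit on the 2 groups compared (adjusted p = 0.00878). The overlapping same-strand gene AC040162.1 shares 34.8% of PSMB10's exonic bases.

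The PA28 genes also rose in M1 cells of both lines. PSME1, which encodes PA28 alpha, was at 111, 107, 131 and 122 FPKM in CES1KD M1 and at 151, 137, 155 and 137 FPKM in WT M1. It was at 60.5, 57.7, 61.6 and 60.6 FPKM in CES1KD M2 and at 45.2, 59.8, 48.4 and 54 FPKM in WT M2. It was at 64, 63.7, 60.6 and 69.3 FPKM in CES1KD M0 and at 52.4, 54.6, 51.8 and 59.1 FPKM in WT M0. The 2 lines did not overlap in M1 or at rest, and their order was opposite in the 2 states. The M1 response was 0.86 ± 0.08 in CES1KD cells and 1.40 ± 0.08 in WT cells (limma adjusted p = 4.24e-09 and 6.48e-13).

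PSME2, which encodes PA28 beta, was at 68.4, 64.5, 66.2 and 72.7 FPKM in CES1KD M1 and at 122, 83.9, 115 and 130.4 FPKM in WT M1. It was at 33.5, 25.2, 30.9 and 32.3 FPKM in CES1KD M2 and at 29.5, 30.3, 27.2 and 30.0 FPKM in WT M2. It was at 28.6, 26.9, 28 and 28 FPKM in CES1KD M0 and at 27, 27.8, 25.8 and 27.9 FPKM in WT M0. The lines overlapped at rest and in M2 and separated in M1, where every WT library was above every CES1KD library. Its M1 response was 1.26 ± 0.10 in CES1KD cells and 2.00 ± 0.10 in WT cells (limma adjusted p = 5.28e-10 and 1.01e-13).

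**Figure D1:**
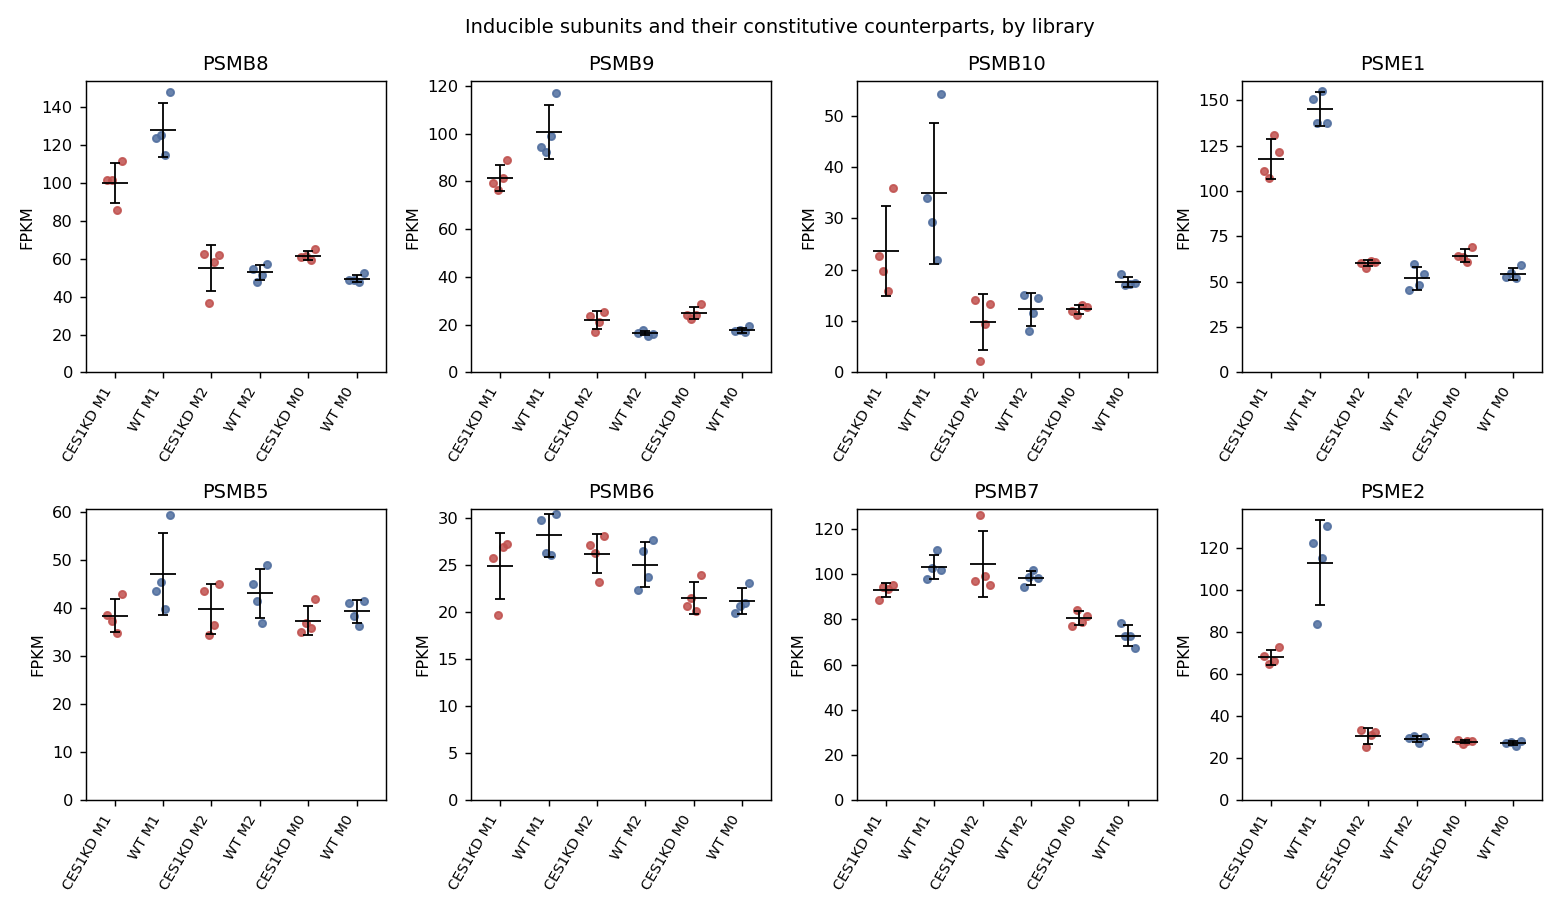
FPKM of the 5 inducible members and of PSMB5, PSMB6 and PSMB7 in each library (points) by group, with the mean (long bar) and SD (whiskers) of 4 libraries. PSMB8, PSMB9, PSME1 and PSME2 stood higher in every M1 library than in any M2 or M0 library. PSMB5 overlapped between M1 and M0 in both lines. PSMB6 did so in CES1KD cells, while in WT cells its M1 libraries lay above the M0 ones. PSMB7 was higher in M1 than in M0 without overlap in both lines.

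The constitutive catalytic subunits moved little beside these. PSMB5, the chymotrypsin-like subunit, averaged 38.4 ± 3.44 FPKM in CES1KD M1, 47 ± 8.54 in WT M1, 37.3 ± 3.05 in CES1KD M0 and 39.2 ± 2.48 in WT M0 (SD, n = 4 each). Its M1 response was 0.04 ± 0.11 in CES1KD cells and 0.24 ± 0.11 in WT cells, and neither passed (limma adjusted p = 0.809 and 0.0757); both turned negative, to -0.21 and -0.01, with libraries scaled to total fragments. The WT response of PSMB5 passed without WT M1 replicate 3, at 0.31. PSMB6, the caspase-like subunit, averaged 24.9 ± 3.51 FPKM in CES1KD M1, 28.2 ± 2.30 in WT M1, 21.5 ± 1.69 in CES1KD M0 and 21.2 ± 1.38 in WT M0. Its M1 difference in CES1KD cells was 0.19 ± 0.09 (limma adjusted p = 0.0927), which passed at 0.30 without CES1KD M1 replicate 2 and was -0.05 with scaling to total fragments. In WT cells it rose by 0.39 ± 0.09 (adjusted p = 0.00113), a call lost at 0.15 with scaling to total fragments. PSMB7, the trypsin-like subunit, averaged 93 ± 2.97 FPKM in CES1KD M1, 103 ± 5.32 in WT M1, 80.4 ± 3.09 in CES1KD M0 and 72.8 ± 4.61 in WT M0. PSMB7 rose by 0.21 ± 0.07 in CES1KD cells and by 0.50 ± 0.07 in WT cells (adjusted p = 0.0167 and 2.44e-06), and the CES1KD value turned to -0.05 with scaling to total fragments.

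The balance within each catalytic pair was then read as the inducible gene's share of the pair's summed FPKM, which does not depend on library scaling. It does depend on the deposited gene lengths, which for these genes equal all annotated exonic bases together. Which gene of a pair has the higher FPKM thus rests on these lengths, while the order of libraries by share does not. The share of PSMB8 in PSMB8 and PSMB5 was 72.5, 73.1, 71.2 and 72.2% in CES1KD M1 and 73.9, 73.4, 74.2 and 71.4% in WT M1. It was 58.9, 51.8, 61.5 and 58.0% in CES1KD M2 and 54.9, 53.5, 58.2 and 53.9% in WT M2. It was 63.4, 62.4, 62.5 and 60.8% in CES1KD M0 and 54.4, 56.1, 56.9 and 55.9% in WT M0. PSMB8 thus had the higher FPKM of the pair in all 24 libraries, and the share was higher in M1 than at rest in both lines without overlap. At rest the CES1KD share exceeded the WT share by 6.47 percentage points without overlap, whereas in M1 the lines differed by -0.992 and overlapped.

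The share of PSMB9 in PSMB9 and PSMB6 was 75.5, 79.4, 75.1 and 76.5% in CES1KD M1 and 76.0, 77.8, 79.1 and 79.3% in WT M1. It was 46.7, 39.0, 47.5 and 47.5% in CES1KD M2 and 42.5, 40.1, 39.3 and 37.0% in WT M2. It was 53.9, 51.2, 54.5 and 54.6% in CES1KD M0 and 46.2, 45.9, 44.7 and 45.5% in WT M0. By FPKM, PSMB6 was the higher of this pair in all 8 M2 and all 4 WT M0 libraries. PSMB9 was the higher in all 8 M1 and all 4 CES1KD M0 libraries. The deposited lengths were 3072 bases for PSMB9 and 1448 for PSMB6. Which gene leads in a state rests on these lengths, so a change of the leading transcript cannot be read from them. The M2 shares lay below the resting ones without overlap in both lines, with mean differences of -8.37 percentage points in CES1KD cells and -5.84 in WT cells.

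The share of PSMB10 in PSMB10 and PSMB7 was 20.4, 17.3, 14.5 and 27.4% in CES1KD M1 and 25.8, 22.2, 16.6 and 34.7% in WT M1. It was 12.7, 1.71, 8.71 and 12.2% in CES1KD M2 and 13.7, 7.58, 10.2 and 12.9% in WT M2. It was 13.5, 11.7, 14.3 and 13.5% in CES1KD M0 and 19.6, 18.9, 19.2 and 20.6% in WT M0. PSMB7 had the higher FPKM of this pair in all 24 libraries. At rest the CES1KD share was lower than the WT share by 6.30 percentage points, opposite to the other pairs and without overlap. Without CES1KD M2 replicate 2 the difference between the lines in M2 changed from -2.26 to 0.111 points. Over the 21 comparisons of shares made in all, the two-sided exact permutation test, with 4 libraries on each side, cannot go below p = 0.0286, and each comparison without overlap had that p and an adjusted p of 0.0545, so none passed at 0.05.

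**Figure D2:**
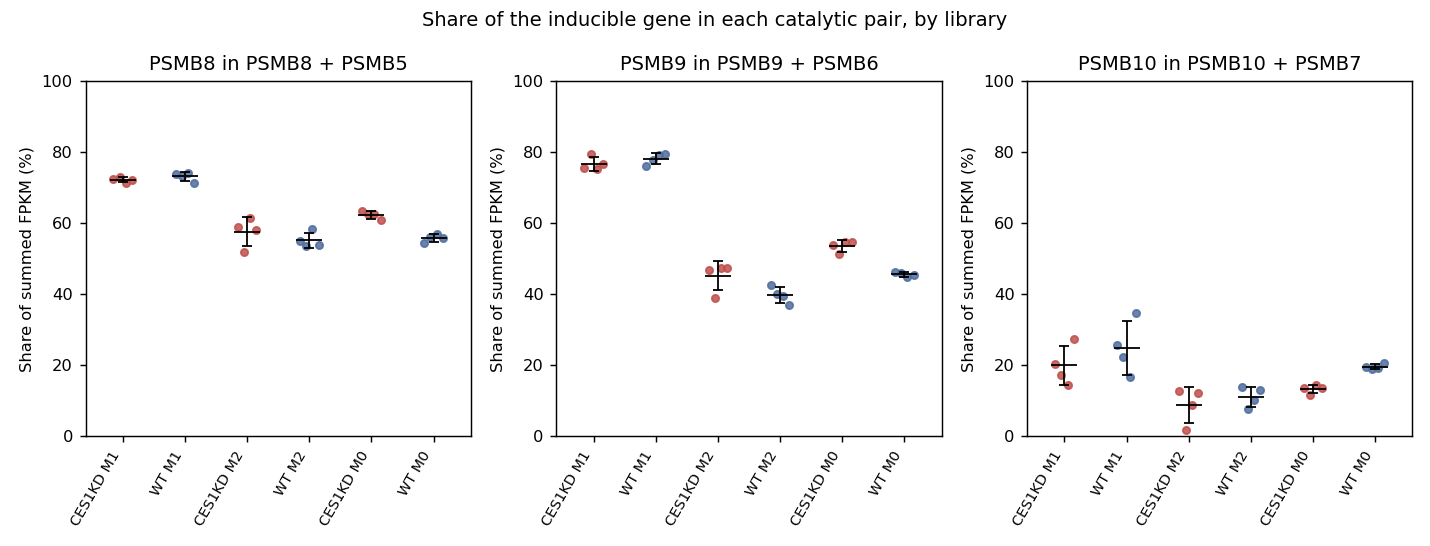
Share of PSMB8, PSMB9 and PSMB10 in the summed FPKM of the pair with PSMB5, PSMB6 and PSMB7, in percent, for each library (points) with mean and SD of 4. M1 groups stood at 71.2% to 74.2% for PSMB8 and at 75.1% to 79.4% for PSMB9, and the PSMB10 share stayed below that of PSMB7 everywhere.

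Across all members, LPS with interferon gamma went with higher levels in CES1KD cells for 24 of 44 tested members and lower levels for 4, where 44.7% of the 13242 genes tested were called (24.9% higher, 19.8% lower). In WT cells 30 members were higher and 1 lower, where 48.1% of all genes were called (26.4% higher, 21.8% lower). With the deposited scaling the share of members called either way was thus above the background, and the direction was mostly upward. With scaling to total fragments that share was below the background in both lines, and the direction in CES1KD cells was mostly downward. The 5 inducible members had a median log2 difference of 0.86 in CES1KD cells and 1.40 in WT cells, the 39 others 0.17 and 0.21, and all genes 0.01 and 0.00. With scaling to total fragments the counts became 7 higher and 12 lower in CES1KD cells and 12 higher and 3 lower in WT cells, and the median of the 39 others became -0.05 and -0.03, against -0.18 and -0.20 for all genes, of which 1838 were then called higher and 5335 lower in CES1KD cells and 2005 and 5639 in WT cells.

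In the alpha ring, which gates entry to the core, 4 of 6 tested members rose in each line. Of all genes, 24.9% rose in CES1KD cells and 26.4% in WT cells. PSMA4 was at 31.8, 31.1, 33.7 and 30.6 FPKM in CES1KD M1 and 17.5, 16.5, 17.6 and 15.2 FPKM in CES1KD M0, and at 44.3, 42.8, 47.8 and 42.2 FPKM in WT M1 and 19.1, 19.4, 19.6 and 21 FPKM in WT M0. These groups did not overlap between M1 and rest, and the M1 response was 0.89 ± 0.06 in CES1KD cells and 1.12 ± 0.06 in WT cells (limma adjusted p = 1.11e-11 and 1.04e-13). By value this was above the responses of PSMB8 (0.69), PSME1 (0.86) and PSMB10 (0.83) in CES1KD cells. In WT cells it was above that of PSMB10 (0.87) alone among the inducible members. PSMA5 rose by 0.55 and 0.79 and PSMA3 by 0.52 and 0.77 in CES1KD and WT cells, and all 3 kept these calls under each alternative run. PSMA1 rose in CES1KD cells by 0.44, which was lost at 0.21 with scaling to total fragments. PSMA2 and PSMA6 were listed at only 0.368 to 1.38 and 0.584 to 1.45 FPKM, far below the other ubiquitous alpha subunits. Same-strand genes overlap 14.6% and 14.1% of their exonic bases. The processed pseudogene PSMA6P1 was listed at a mean of 3.02 and up to 5.49 FPKM, above PSMA6 itself. The deposited levels of PSMA2 and PSMA6 are uncertain, and why they are so low was not tested.

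Among the beta ring's constitutive members, 5 of 7 rose in CES1KD cells and 6 of 7 in WT cells. For these roles too, the shares of all genes that rose were 24.9% in CES1KD cells and 26.4% in WT cells. The 19S ATPases gave 3 and 4 of 6, led in WT cells by PSMC2 at 0.54 (limma adjusted p = 3.9e-08), and the 19S non-ATPase subunits 6 and 7 of 11. Of the exonic bases of PSMC1, an ATPase, 75.8% are shared with the opposite-strand gene NRDE2. Its processed pseudogene PSMC1P1 averaged 2.61 FPKM. With the deposited scaling no 20S or 19S subunit fell in either line. The members called lower were PSMC3IP, the recombination factor, at -0.48 in CES1KD cells and -0.35 in WT cells, and, in CES1KD cells, PSMG3 and PSMG1, chaperones that help to assemble the core, at -0.52 and -0.23, and PSME3, the nuclear activator PA28 gamma, at -0.11. The PSMC3IP call in WT cells was lost without WT M1 replicate 3, at -0.26. The PSMG3 call was lost without CES1KD M0 replicate 3 or 4 or CES1KD M1 replicate 3, at -0.46, -0.49 and -0.46. Those of PSMG1 and PSME3 were lost without each of 5 and 6 of the 8 libraries, at log2 differences of -0.16 to -0.30 and -0.08 to -0.13 over all 8. PSMG1 lost its call without CES1KD M0 replicates 1 or 3 or CES1KD M1 replicates 1, 3 or 4, and PSME3 without CES1KD M0 replicates 2, 3 or 4 or CES1KD M1 replicates 1, 2 or 4. The PSMG1 and PSMG3 calls were also lost without the filter, and those of PSMG1 and PSME3 in the fit on the 2 groups compared.

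**Figure D3:**
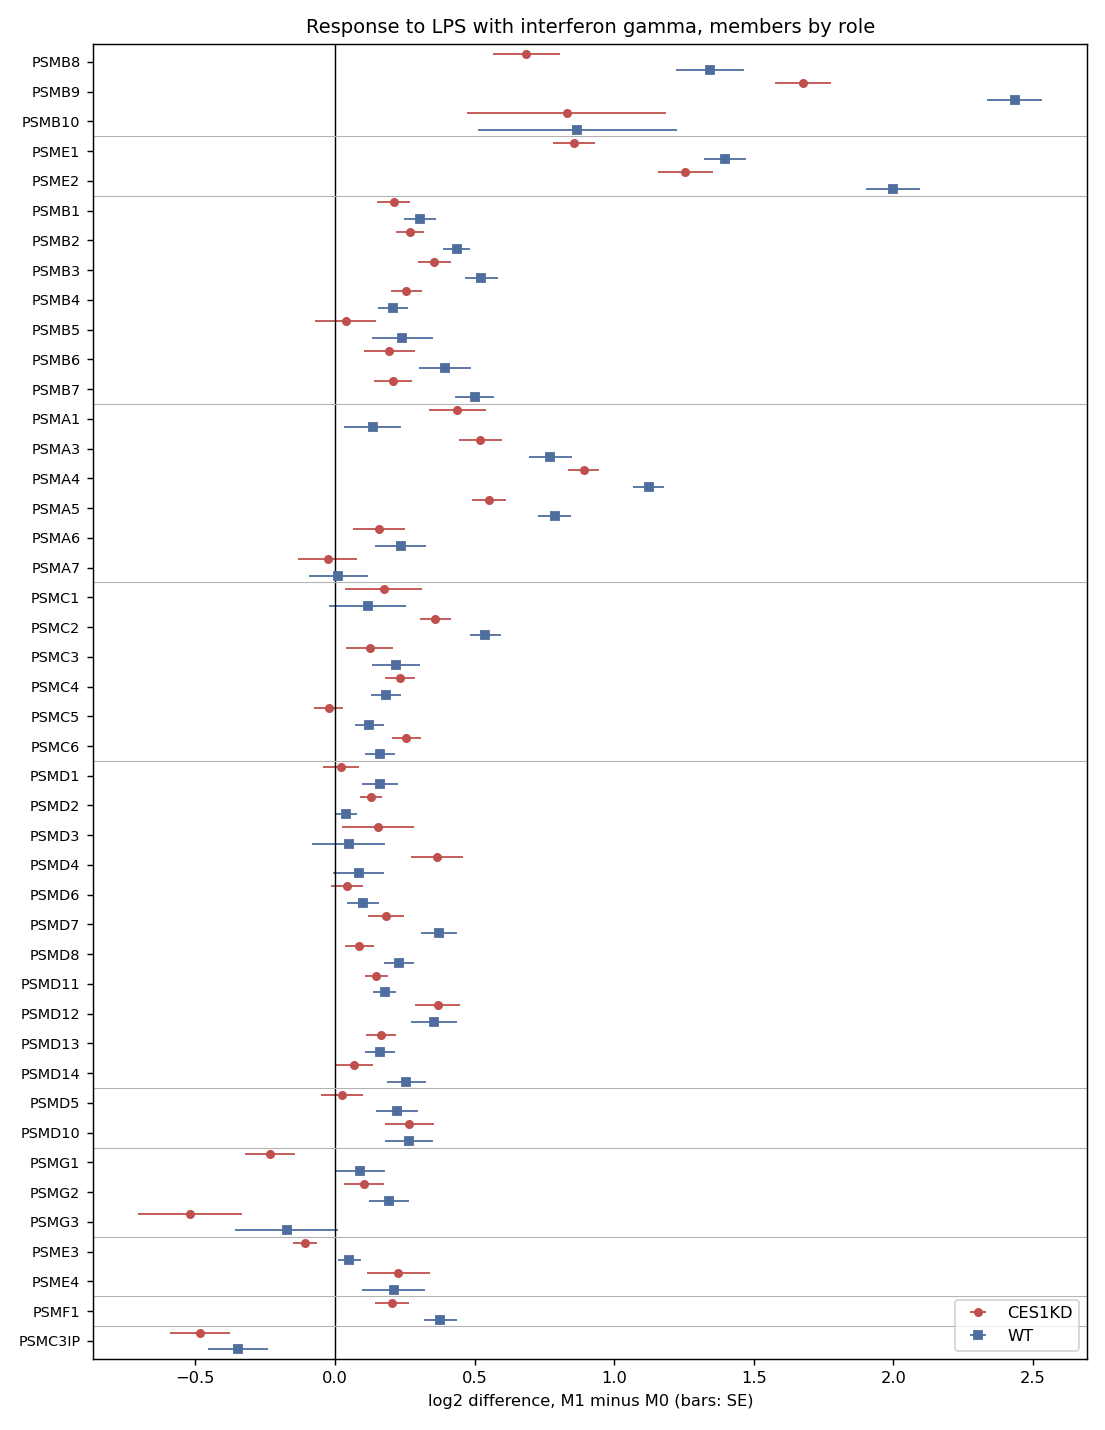
Log2 difference of M1 minus M0 (points, with SE) for the 44 tested members in CES1KD (circles) and WT cells (squares), grouped by role from the inducible beta subunits at the top to PSMC3IP at the bottom. PSMB9, PSME2, PSME1 and PSMB8 lie farthest right in WT cells, from 2.43 down to 1.34, and their CES1KD values lie to the left of them.

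The response to LPS with interferon gamma was smaller in CES1KD cells for 4 of the 5 inducible members. The difference between the lines in M1 minus that at rest was -0.76 ± 0.14 for PSMB9, -0.74 ± 0.14 for PSME2, -0.66 ± 0.17 for PSMB8 and -0.54 ± 0.11 for PSME1 (limma interaction, adjusted p = 0.000323, 0.000339, 0.00671 and 0.000639). These 4 calls held under every alternative run, the omission of each of the 16 libraries included. For PSMB10 the value was -0.04 ± 0.50 (adjusted p = 0.969), with a spread that would hide a difference of the size seen in the others. Of the 39 other members 3 passed, all downward, with PSMB7 at -0.29, PSMA5 at -0.24 and PSMA4 at -0.23 (adjusted p = 0.0324, 0.0467 and 0.0326). Over all genes 23.6% were called in this comparison (10.4% higher, 13.2% lower), against 7 of 44 members lower and none higher. The 3 narrow calls depended on single libraries and on the processing. PSMB7's was lost without CES1KD M0 replicates 2 or 4, CES1KD M1 replicate 1, WT M0 replicates 2, 3 or 4 or WT M1 replicate 3, with log2 values of -0.25 to -0.33 over the 16 omissions, and without the filter or with scaling by median of ratios. PSMA4's was lost without each of 10 libraries, at -0.20 to -0.28 over all omissions, and PSMA5's without 10, at -0.21 to -0.27. Both were also lost without the filter, and PSMA5's with 0.1 added, with TMM factors, by median of ratios and with the replicate block. The libraries were CES1KD M0 replicates 1 and 3, CES1KD M1 replicates 1, 2 and 4, WT M0 replicates 1, 2 and 3 and WT M1 replicates 1 and 3 for PSMA4. For PSMA5 they were CES1KD M0 replicates 3 and 4, CES1KD M1 replicates 1, 2 and 4, WT M0 replicates 1 and 3 and WT M1 replicates 1, 2 and 3. The count of 7 lower was 4 to 10 over the 16 omissions, and fell or rose by more than 1.5 times without CES1KD M1 replicate 1, WT M0 replicate 3 or WT M1 replicate 3.

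No member was called lower under IL4 in the fit of log2(FPKM + 1) over all 6 groups. In CES1KD cells 5 of 44 were higher and none lower, where 22.8% of all genes were called (11.3% higher), and in WT cells 14 were higher and none lower, where 27.1% were called (14.6% higher). None of the 5 inducible members passed in either line, with log2 differences of -0.52 for PSMB10 to 0.12 for PSME2 in CES1KD cells and of -0.53 for PSMB10 to 0.10 for PSME2 in WT cells. PSMB7 rose in both lines, by 0.36 ± 0.07 in CES1KD cells and 0.43 ± 0.07 in WT cells (limma adjusted p = 0.000338 and 4.59e-05), and held under every alternative run. In WT cells PSMD8, a 19S lid subunit, rose by 0.34 and also held, and PSMG3 rose by 0.60, a call lost without WT M0 replicate 3 at 0.52 or WT M2 replicate 1 at 0.54. The M1 and M2 responses of a line share its M0 libraries, so their values are not independent. The WT count was 4 with scaling to total fragments, where 1349 of all genes were called higher and 2616 lower, and 5 to 14 when single libraries were left out, falling by more than 1.5 times without WT M0 replicates 1, 2 or 3 or WT M2 replicates 2 or 4. The CES1KD count was 1 with scaling to total fragments and 2 to 7 with single libraries left out, moving by more than 1.5 times without CES1KD M0 replicates 1 or 2 or CES1KD M2 replicate 4.

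Between the lines at rest, 9 of 44 members were higher in CES1KD cells and 10 lower, where 54.3% of all genes differed (28.1% higher, 26.3% lower). The share of members called was thus below the background. Among the inducible members PSMB9 was higher by 0.46 ± 0.10, PSMB8 by 0.31 ± 0.12 and PSME1 by 0.24 ± 0.08 (limma adjusted p = 0.00046, 0.0357 and 0.0113), PSME2 did not pass at 0.04, and PSMB10 stood at -0.49 ± 0.36 (adjusted p = 0.252). Only PSMB9's call held with scaling to total fragments, where PSMB8 was at 0.23 and PSME1 at 0.16. PSMB8's was also lost without CES1KD M0 replicates 1, 2 or 4 or WT M0 replicates 1, 2 or 3, at 0.28 to 0.34 over the 8 omissions, and without the filter. PSMB10's resting groups did not overlap, and the fit on these 2 groups alone called it at the same log2 difference, with an adjusted p of 4.94e-05; the fit over all 6 groups carries the wide spread of PSMB10 in treated cells.

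In M1, 4 members were higher in CES1KD cells and 20 lower, where 57.2% of all genes differed (28.5% higher, 28.7% lower). Of the inducible members PSME2 was lower, at -0.71 ± 0.10, PSMB8 at -0.35 ± 0.12, PSME1 at -0.30 ± 0.08 and PSMB9 at -0.30 ± 0.10 (limma adjusted p = 2.23e-06, 0.0175, 0.00169 and 0.014), and PSMB10 stood at -0.53 ± 0.36 (adjusted p = 0.211). The log2 differences of all 5 were below 0 under every alternative run. The PSMB8 call was lost without CES1KD M1 replicate 3, at -0.28, or WT M1 replicate 4, at -0.28, and the PSMB9 call without WT M1 replicate 4, at -0.22. In M2, 7 were higher and 14 lower, where 52.3% of all genes differed (25.6% higher, 26.7% lower), and PSMB9 was higher by 0.37 ± 0.10 and PSME1 by 0.22 ± 0.08 (adjusted p = 0.00362 and 0.0206). PSME1's call in M2 was lost without WT M2 replicate 1, at 0.15, or replicate 3, at 0.19, and in the fit on the 2 groups compared. PSMB8 in M2 did not pass at 0.03 but did at 0.21 without CES1KD M2 replicate 2 (adjusted p = 0.0366).

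Outside the inducible genes, the largest differences between the lines had the same sign in M1, M2 and at rest. PSMD4, the ubiquitin receptor of the 19S cap, was at 82.1, 73.8, 71.9 and 82.8 FPKM in CES1KD M1 and 37.7, 38.1, 35.2 and 42.3 FPKM in WT M1. It was at 64.5, 43.4, 58.2 and 62.3 FPKM in CES1KD M2 and 36.5, 30.9, 31 and 36 FPKM in WT M2. It was at 56, 60.8, 61.3 and 62.1 FPKM in CES1KD M0 and 37.2, 36.1, 35.9 and 35 FPKM in WT M0. The lines did not overlap in any state, with log2 differences of 1.00 ± 0.09 in M1, 0.74 ± 0.09 in M2 and 0.72 ± 0.09 at rest (limma adjusted p = 5.63e-09, 6.63e-07 and 8.35e-07). PSMB4, a structural beta subunit that is also on chromosome 1, was higher by 0.36, 0.25 and 0.32. PSMD5, a chaperone of 19S assembly on chromosome 9, was higher by 0.47, 0.28 and 0.67, at 9.03, 10.1, 9.01 and 9.89 FPKM in CES1KD M0 and 5.19, 5.48, 5.75 and 6.0 FPKM in WT M0. All 9 of these calls held under every alternative run.

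PSMB2, a structural subunit of the beta ring, was at 21.4, 21.7, 23.1 and 22.7 FPKM in CES1KD M1 and 37.2, 36.2, 36.5 and 33 FPKM in WT M1. PSMB1, another, was at 53.1, 48.2, 55.9 and 57.5 FPKM in CES1KD M1 and 80.6, 77.3, 79.5 and 87.3 FPKM in WT M1. The CES1KD libraries lay below all WT libraries for both genes. PSMB2 was lower, at -0.66 ± 0.05 in M1, -0.67 ± 0.05 in M2 and -0.49 ± 0.05 at rest, and PSMB1 at -0.59 ± 0.06, -0.44 ± 0.06 and -0.49 ± 0.06 (limma adjusted p at most 1.29e-06). PSMA3, of the alpha ring, was lower, at -0.60, -0.26 and -0.35 in M1, M2 and at rest, and PSMG1 at -0.58 in M1. PSMD12, a 19S lid subunit, was lower, at -0.42 in M2 and -0.26 at rest, and PSMD10, the 19S chaperone gankyrin, at -0.28 in M2. Of the differences between M2 and rest in the effect of the line, 1 of 44 passed, where 6.65% of all genes did (2.41% higher, 4.24% lower): PSMD5, at -0.40 ± 0.11 (adjusted p = 0.0254). That call was lost without CES1KD M0 replicates 2 or 4, CES1KD M2 replicate 4, WT M0 replicates 1 or 2 or WT M2 replicates 2 or 4, at -0.34 to -0.44 over the 16 omissions.

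**Figure D4:**
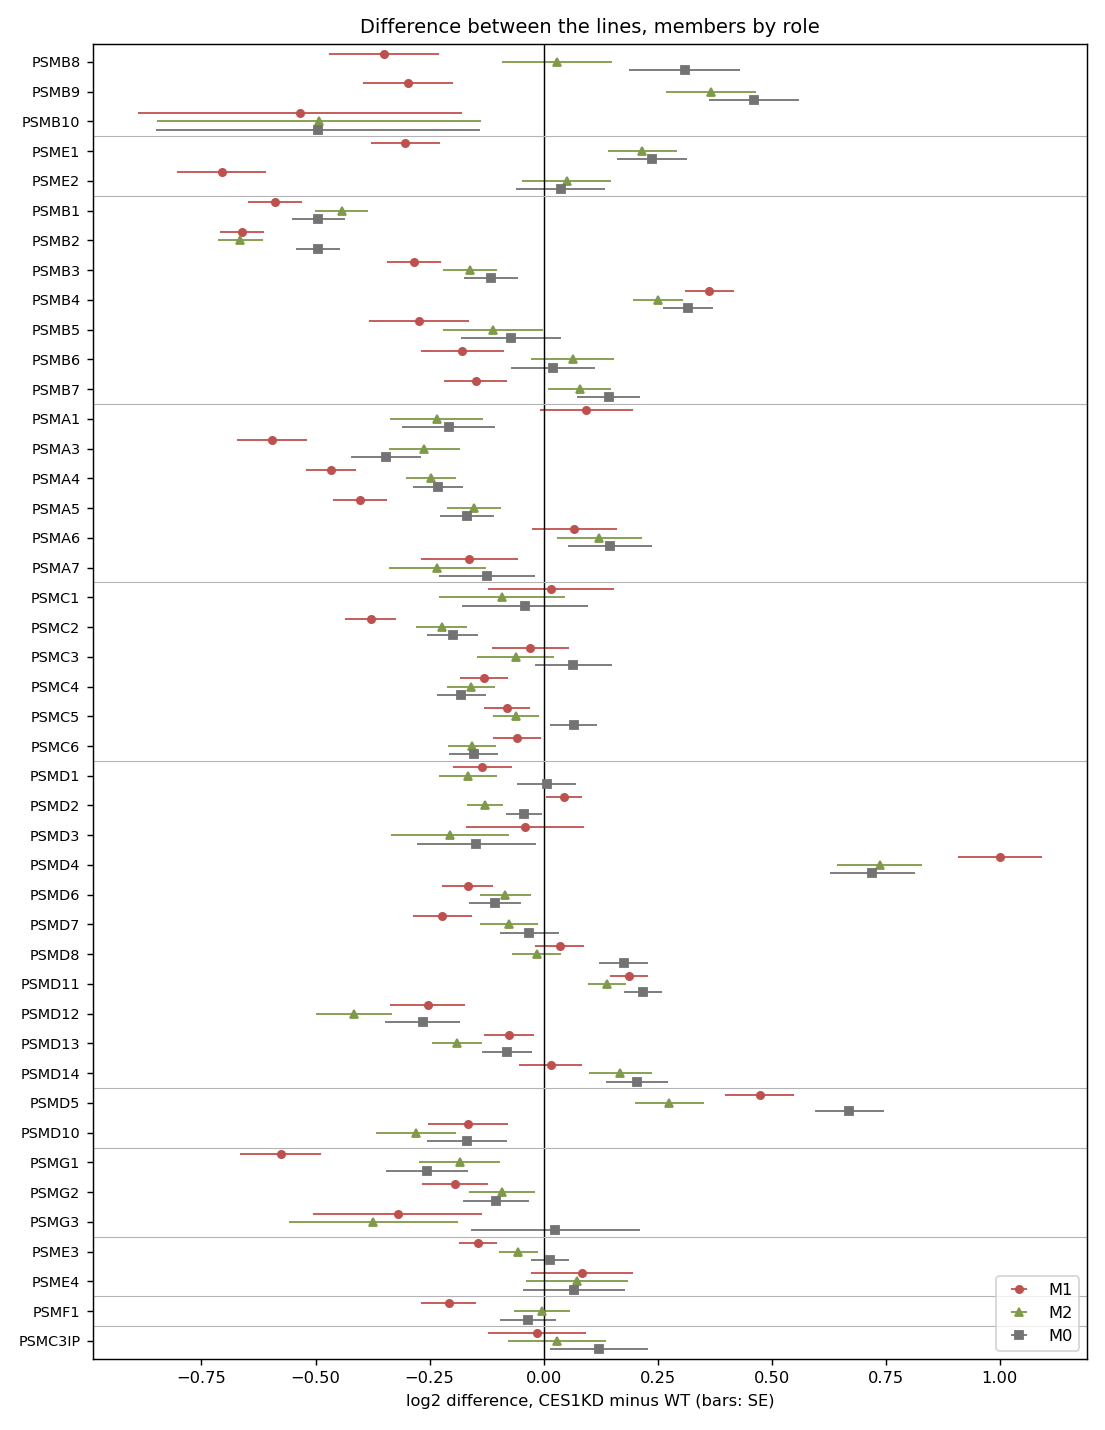
Log2 difference of CES1KD minus WT (points, with SE) for the 44 tested members in M1 (circles), M2 (triangles) and M0 (squares), by role. PSMD4 reaches 1.00 in M1, and PSMB2 and PSMB1 lie left of 0 in all states. Of the inducible members at the top, PSMB8, PSMB9 and PSME1 change side between M1 and M0. PSMB10 lies left of 0 in both, and PSME2 lies at 0.04 ± 0.10 in M0, within its SE of 0.

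The tested protein-coding genes around the members, the members themselves left out, were compared in the same way. Within 2 Mb of PSMD4, 47 of 56 such genes were higher in CES1KD cells in M1 and 42 at rest, with medians of 0.58 and 0.55. Of all genes tested, 28.5% were higher in M1 and 28.1% at rest. Around PSMB4 the counts were 47 and 42 of 57, with medians of 0.57 and 0.55. On chromosome 1 PSMD4 starts at base 151254703 and PSMB4 at base 151399534. Their windows thus overlap almost fully and are not independent. The neighbours of PSMD5, by contrast, had medians of -0.05 in M1 and 0.01 at rest, with 2 and 5 of 17 higher, and those of PSMB2 0.00 and 0.02 with 6 of 27 higher in each. The neighbours of PSMB1 had medians of -0.24 in M1 and -0.28 at rest over 9 genes, and those of PSMA3 0.00 and 0.10 over 17 genes. PSMD4 and PSMB4 thus stood in a stretch where most genes were higher in CES1KD cells, while PSMD5, PSMB2 and PSMA3 differed from neighbours whose medians were near 0 or opposite. The part of these surroundings in the members' differences was not tested.

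**Figure D5:**
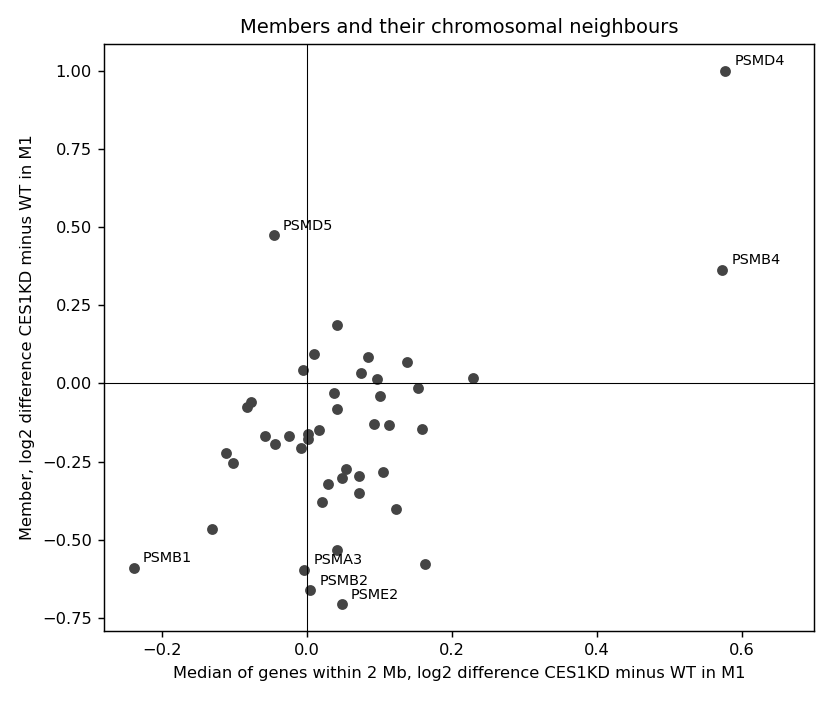
Log2 difference of CES1KD minus WT in M1 for each tested member (vertical), 1 point per member. The horizontal axis is the median of the tested protein-coding genes within 2 Mb of it, members left out. PSMD4 and PSMB4, whose windows overlap almost fully, lie alone at the right with neighbour medians of 0.58 and 0.57. PSMD5, PSMB2 and PSMA3 lie near a neighbour median of 0.

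Regulators of proteasome genes and of the interferon response were read in the same libraries. IRF1, an early interferon gamma target and a direct regulator of immunoproteasome genes, averaged 34.8 ± 2.63 FPKM in CES1KD M1, 57.3 ± 4.77 in WT M1, 6.33 ± 0.329 in CES1KD M0 and 5.37 ± 0.307 in WT M0 (SD, n = 4 each). Its M1 response was 2.28 in CES1KD cells and 3.19 in WT cells. The differences between the lines in M1 minus rest were -1.28 ± 0.10 for STAT2 and -0.91 ± 0.13 for IRF1 (limma adjusted p = 4.92e-09 and 2.34e-05). Of 10 regulators tested 5 had a smaller M1 response in CES1KD cells and none a larger one. Of all genes, 13.2% were called lower and 10.4% higher in that comparison. NFE2L1, the factor known to raise constitutive subunits when the proteasome is inhibited, had M1 differences of 0.03 and -0.04 that did not pass in CES1KD and WT cells (limma adjusted p = 0.811 and 0.781).

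Peptide loading genes, which act after the proteasome, rose in M1 for 13 of 13 tested in both lines. Their medians were 0.99 in CES1KD cells and 1.60 in WT cells. Of all genes, 24.9% rose in CES1KD cells and 26.4% in WT cells. TAP1 rose by 2.22 and 3.62 in CES1KD and WT cells. Of the 13, 8 had a smaller M1 response in CES1KD cells, where 13.2% of all genes were called lower in that comparison. The levels of these genes were nonetheless mostly higher in CES1KD cells. At rest 9 were higher and 2 lower, against 28.1% and 26.3% of all genes. In M1 7 were higher and 4 lower, against 28.5% and 28.7% of all genes. TAP1 averaged 356 ± 17.1 FPKM in CES1KD M1 and 294 ± 20.2 in WT M1, with 76 ± 5.87 in CES1KD M0 and 23 ± 1.32 in WT M0 (SD, n = 4 each). Of 12 proteasome partners, 4 rose in CES1KD cells and 6 in WT cells, against the same 24.9% and 26.4% of all genes. POMP, the chaperone that matures the core, rose by 0.46 and 0.47 and was lower in CES1KD cells in M1, M2 and at rest, at -0.43, -0.49 and -0.42. AKIRIN2, which brings proteasomes into the nucleus, was higher by 0.78, 0.83 and 1.00. Of 7 ubiquitin genes, 5 rose in CES1KD cells and 4 in WT cells, against 24.9% and 26.4% of all genes. In CES1KD cells 1 fell, RPS27A, which encodes ubiquitin fused to a ribosomal protein, at -0.31, where 19.8% of all genes fell.

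Over the 24 libraries, which share the contrast between M1 and the other states, log2(FPKM + 1) of the inducible members moved together, with Pearson r from 0.637 for PSMB10 with PSME1 to 0.984 for PSMB9 with PSME1. The protein-coding genes most like PSMB9 were TNF (r = 0.993), IRF1 (0.990) and TAPBP (0.990). Those most like PSME1 were SCARB2 (0.986), PSMB9 (0.984) and TAP2 (0.983), and those most like PSME2 were CD74 (0.988), IDO1 (0.987) and CXCL9 (0.985). PSMB8 was closest to BHLHE22 (0.979), RNF181 (0.977) and LGALS9 (0.972). PSMB10 was closest to SDF2L1 (0.953), CLCN7 (0.953) and RINL (0.937).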

How the data were processed

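RNA-seq of 24 THP-1 macrophage libraries (6 groups of 4, grouped by the labels' genotype and treatment) was used as deposited by the authors in FPKM per gene. The submitters' processing notes list the tools HISAT2, CASAVA and DESeq without a version. The file gives no build; its gene coordinates equal those of GENCODE release 29 (GRCh38) for 58653 of 58735 genes. In each library, 100% of the products of FPKM and length were whole multiples of the value of 1 fragment (tolerance 0.01), which gave 14881563 to 26671681 fragments per library. Tests used limma 3.58.1 in R 4.3.3 (6 group means, trended variance, 18 residual degrees of freedom) on log2(FPKM + 1) over 13242 genes with at least 1 FPKM in at least 4 libraries, with Benjamini-Hochberg adjustment over all of them and a threshold of 0.05. Fold differences on this scale understate low genes. Shares were tested with exact permutation tests (scipy 1.17.1). In simulated data the fit was checked to recover known changes.

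The members and gene lists were chosen with earlier results of these data known. Named are the 5 inducible members and PSMB5, PSMB6 and PSMB7, and per comparison up to 4 further called members in each direction with the largest difference; from other lists, up to 3 genes per comparison by p. PSMA2, PSMA6 and FPKM of overlapping genes depend on how the authors assigned shared reads, for which no source used here gives a method. Alternatives were the pseudocount, the filter, 3 scalings, smaller fits, the replicate number as a block and leaving out each library, and, added after seeing the data, limma voom on the recovered fragments.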

Additional observations from a re-analysis of the deposited data

Results flagged for a closer look

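CES1KD M2 replicate 2 was far from its group for PSMB8, at 36.8 FPKM against 58.1 to 62.3 FPKM in the other 3 libraries, and for PSMB7, at 126 FPKM against 95.4 to 99.2 FPKM. Its share of PSMB9 in the pair with PSMB6 was 39.0%, against 46.7% to 47.5% in the others. The gap to the nearest library, as a part of the group's range, was 0.836, 0.876 and 0.912, above 0.829, the 95% critical value for 4 samples. The shares are made from genes that were also tested singly, so the sets tested are not independent. Of 66 sets of 4 tested in this way these 3 passed the critical value, near the 1 in 20 that chance flags. All 3 lie in 1 library, the one farthest from its group over the tested members, and whether they share a cause was not tested.

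The effect of the line differed between M1 and rest for 7 members. The log2 difference was -0.76 for PSMB9, -0.74 for PSME2, -0.66 for PSMB8, -0.54 for PSME1, -0.29 for PSMB7, -0.24 for PSMA5 and -0.23 for PSMA4. Between M2 and rest it differed for PSMD5, at -0.40. All passed limma's interaction test over all genes, and the last 4 of these 8 did so with adjusted p between 0.0254 and 0.0467.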

How the results depend on the processing

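Of 77 calls on named members, 1213 of 1373 recomputed values kept their direction and their side of the threshold, 158 lost the call and 2 reversed. Scaling to total fragments moved the counts of members most, and limma voom on recovered fragments, chosen after seeing the data and using the same totals, moved them alike. The M1 responses then gave 7 higher and 12 lower in CES1KD cells under both, and in WT cells 12 higher and 3 lower with total scaling and 11 and 4 with voom. The M2 responses gave 1 higher in CES1KD cells under both, with 1 lower under voom, and 4 and 3 higher in WT cells. Between the lines at rest both gave 5 higher and 17 lower. Without a filter on low values the M2 responses gave 2 and 9 higher in CES1KD and WT cells, the CES1KD M1 response 2 lower, and the M1 difference between lines relative to rest 4 lower. Scaling by median of ratios gave 9 higher in the WT M2 response. Fits on only the groups compared gave 4 higher and 8 lower between the lines in M2, 1 higher in the CES1KD M2 response, 1 lower in the WT M2 response, 2 lower in the CES1KD M1 response, and 1 higher for M1 relative to rest.

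Leaving out single libraries gave 2 to 7 and 5 to 14 higher in the CES1KD and WT M2 responses, 1 to 3 and 0 to 1 lower in the CES1KD and WT M1 responses, 4 to 10 lower for M1 relative to rest and 0 to 2 lower for M2 relative to rest. The PSMB10 share difference between lines in M2 was -3.55 to 0.111 points.

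Reversals under total scaling and voom were, for PSMB5, -0.213 and -0.215 in the CES1KD M1 response, -0.00908 and -0.00962 in the WT M1 response, and 0.0208 and 0.0306 for M2 relative to rest. For PSMB6 they were -0.0529 and -0.0625 in the CES1KD M1 response and -0.0571 and -0.0588 between the lines at rest, and for PSMB7 -0.0468 and -0.0500 in the CES1KD M1 response. PSMB8 gave -0.0141 and -0.0182 in the WT M2 response, PSME2 -0.0415 and -0.0475 between the lines at rest, and PSME1 0.0402 and 0.0457 for M2 relative to rest, with 0.00575 by median of ratios. PSMB10 gave 0.00299 with voom for M1 relative to rest, and -0.0576 with 0.1 added and -0.0152 with TMM factors for M2 relative to rest, where PSME2 gave -0.00861 with TMM factors. With single libraries left out, values crossed 0 for PSMB10 at -0.257 to 0.193 (M1 relative to rest), -0.731 to 0.017 (lines in M2) and -0.236 to 0.511 (M2 relative to rest). They did so for PSMB5 at -0.109 to 0.0264 (M2 relative to rest) and -0.016 to 0.0916 (CES1KD M1 response), and for PSMB6 at -0.028 to 0.0628 (lines at rest) and -0.00882 to 0.0964 (M2 relative to rest). They also did so for PSMB7 at -0.0135 to 0.119 and PSMB8 at -0.0413 to 0.206 (lines in M2), and for PSMB9 at -0.17 to 0.0185, PSME1 at -0.0827 to 0.0488 and PSME2 at -0.0335 to 0.0984 (M2 relative to rest). The cause of these reversals was not tested.

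The replicate numbers were not taken to pair the libraries, since not every same-numbered pair correlated above 0.1: of 60 pairs across groups 14 did, with r from -0.290 to 0.413. Those of the lines within M1 were at 0.0431, 0.0594, 0.359 and 0.413 and within M2 at 0.334, 0.410, -0.0578 and 0.189, while no pair of the lines at rest exceeded 0.0329. With the replicate number as a block the members called were 26 higher and 4 lower in the CES1KD M1 response and 32 and 1 in the WT one, 5 and 14 higher in the M2 responses, 4 higher and 20 lower between the lines in M1, 7 and 15 in M2, 9 and 10 at rest, and 6 lower for M1 relative to rest. The block brought the M1 responses of PSMB10 and PSMB6 in CES1KD cells and of PSMB5 in WT cells past the threshold, at adjusted p = 0.0240, 0.0465 and 0.00421 by limma. The count models edgeR and DESeq2, planned as alternatives, were not run. The deposited unit is FPKM, and limma voom on the recovered fragments was run in their place. At the lowest levels members rest on few fragments. PSMA8 held at most 2 and PSMB11 at most 3 in any library. PSMG4 held 19 to 90, PSMC3IP 33 to 126, PSMA2 35 to 148 and PSMA6 63 to 192. The calls of PSMC3IP should be read with that limit.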
